A study of Danio rerio with 3 samples.

Results

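Keratin and epidermis genes were described in RNA sequencing libraries of cells sorted from zebrafish embryos 72 hours after fertilization. The genes were 6, taken by symbol from a list: the keratin genes krt8, krt18, krt4 and krt5, the calcium-binding protein gene icn (ictacalcin, of the S100 family) and epcam, the gene of an epithelial adhesion molecule. Each of the 6 was found once in each table, among 14581 symbols in the table of the double positive cells and 29359 in the table of the kdrl:GFP embryos. The list was drawn up with earlier results of these data known.

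The series holds 3 libraries, 1 for each sorted population, all described as wild type and untreated. The first population was kdrl:mCherry+;sele:GFP+, called double positive here, after reporters driven by the gene of a Vegf receptor of endothelium and by the gene of E-selectin, a leukocyte adhesion molecule. The others came from kdrl:GFP embryos and were sorted as GFP positive and as GFP negative. The tissue put into each sort was whole embryos, with 10000 to 300000 cells collected per population, from pooled embryos. The table of the kdrl:GFP embryos has value columns headed EH_1 and EH_2. The labels tie this table to the positive and the negative sort, but do not say which column is which, and the columns were not assigned by order or by marker genes. They are called library EH_1 and library EH_2 here. A difference between them is therefore a difference between these 2 libraries and cannot be read as higher or lower in endothelium. There were no replicates, so no test was run and no value has an error between samples.

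Keratins are the intermediate filament proteins of epithelial cells. A filament needs a type II keratin, such as the products of krt8, krt4 and krt5, joined to a type I keratin, such as that of krt18. In mammals Krt8 and Krt18 pair in simple, single-layered epithelia, whereas Krt5 is a keratin of the basal layer of skin. The embryonic zebrafish epidermis consists of an outer periderm over a basal layer, and krt4 is widely used as a gene of its surface cells.

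Levels are given as FPKM, fragments scaled by transcript length and by the mapped fragments of the library, which allow genes to be set side by side within a library. No source used here gives a fragment number, so the depth is unknown and values carry no counting interval. The tables list different sets of genes and were normalized separately, so their FPKM are not on a shared scale. Where FPKM of both tables stand in 1 sentence, they are the deposited values side by side, and the libraries are compared by ranks or by ratios within a library. The label of the double positive cells was checked with endothelial genes. Among these kdrl stood at 428 FPKM, sele at 415 FPKM and the endothelial cadherin gene cdh5 at 843 FPKM, ranks 167, 178 and 73 of the library.

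The 6 genes were compared as sets, krt8 and krt18 against the others. This division came with the list, which was drawn up with earlier results known, so it is no finding of these levels. In the double positive cells the set of krt8 and krt18 was the higher. The levels were 1494 FPKM for krt8 and 370 FPKM for krt18, against 85.6 FPKM for icn, 59.1 FPKM for krt5, 39.7 FPKM for krt4 and 6.24 FPKM for epcam. Both krt8 and krt18 stood above each of the other genes, in 8 of 8 pairs. The share of all symbols at 100 FPKM or more was 5.51% in this library, and krt8 and krt18 were the members among them. By rank, krt8 was 31st and krt18 200th of the 14581 symbols. The next were icn at 938th, krt5 at 1427th and krt4 at 2090th, the 93.6th, 90.2nd and 85.7th rank percentiles. epcam ranked 7179th, the 50.8th rank percentile of all symbols, those at 0 included. Among symbols of 1 FPKM or more, epcam lay at the 32.8th percentile.

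In library EH_1 the sets were mixed. The levels were 486 FPKM for krt8 and 343 FPKM for krt18, against 1411 FPKM for krt4, 408 FPKM for icn, 405 FPKM for krt5 and 178 FPKM for epcam. krt8 and krt18 were higher in 4 of the 8 pairs. All 6 genes were at 100 FPKM or more, where 2.03% of all symbols of this library lay, with ranks between 41 for krt4 and 338 for epcam.

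In library EH_2 the order of the sets was the opposite of that in the double positive cells. The levels were 235 FPKM for krt8 and 127 FPKM for krt18, against 3081 FPKM for krt4, 951 FPKM for icn, 792 FPKM for krt5 and 311 FPKM for epcam. krt8 and krt18 were below each of the others, and krt4 was the 12th highest of all symbols. All 6 genes were again at 100 FPKM or more, as 1.79% of all symbols were.

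**Figure D1:**
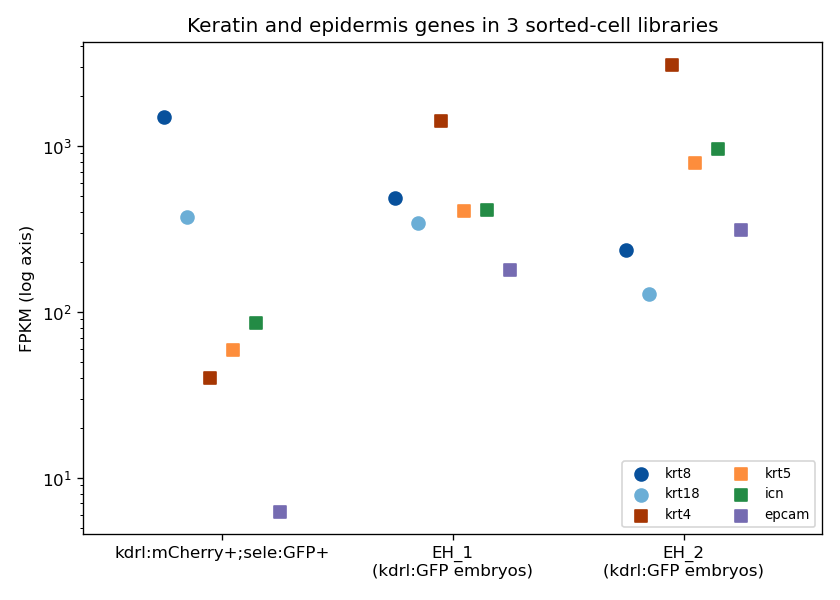
FPKM (log axis) of the 6 genes in each of the 3 libraries. Each point is 1 gene in 1 library, with circles for krt8 and krt18 and squares for the others. In the kdrl:mCherry+;sele:GFP+ library both circles lie above all squares, and in EH_2 both lie below them.

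Set against each other as geometric means of FPKM + 1, krt8 and krt18 were 21.2 times the other 4 genes in the double positive cells, a log2 ratio of 4.40. The log2 ratio was -0.15 in EH_1 and -2.41 in EH_2. In EH_1 the sign turned with the summary: the ratio of medians gave 0.027, and leaving out krt4 gave 0.40. The value in EH_1 therefore shows sets of similar level and no direction.

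The genes also differed in how far their place in the library moved. Ranked among the 12507 symbols that both tables list, krt8 lay at the 99.8th percentile in double positive cells, the 99.2nd in EH_1 and the 98.6th in EH_2. krt18 lay at the 98.6th, 99.0th and 97.5th percentiles in the same order of libraries. Both were thus among the most abundant transcripts of every library. By contrast krt4 lay at the 84.6th percentile in double positive cells, against the 99.9th in EH_1 and above it in EH_2, where it was the 4th highest of the shared symbols. krt5 lay at the 89.5th percentile in double positive cells, against the 99.1st in EH_1 and the 99.7th in EH_2. icn lay at the 93.1st percentile in double positive cells, against the 99.1st in EH_1 and the 99.8th in EH_2. The widest gap was that of epcam, at the 48.1st percentile in double positive cells, against the 98.1st in EH_1 and the 98.9th in EH_2. The share of the 12507 shared symbols that rank lower in double positive cells than in both kdrl:GFP libraries was not counted. The lower ranks of krt4, krt5, icn and epcam there can therefore not be read as particular to keratin and epidermis genes. With 1 library for each population and differing gene models, the spread that such percentiles have between repeats is not known. In sorted bulk cells, fewer cells of a type and less RNA per cell cannot be told apart.

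Shares within a library do not depend on how the library was scaled. Of the summed FPKM of krt8, krt18, krt4 and krt5, krt8 and krt18 together made up 94.97% in double positive cells, 31.3% in EH_1 and 8.55% in EH_2. The single largest share was that of krt8 in double positive cells, at 76.1%, and that of krt4 in EH_1 and EH_2, at 53.4% and 72.7%. The ratio of krt8 to krt4 was 37.6 in double positive cells, 0.344 in EH_1 and 0.0761 in EH_2. The shares changed when the type I genes cyt1, cyt1l, krt17 and krt15 were added to the sum, to 93.4% in double positive cells, 22.5% in EH_1 and 5.19% in EH_2, and kept their order.

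**Figure D2:**
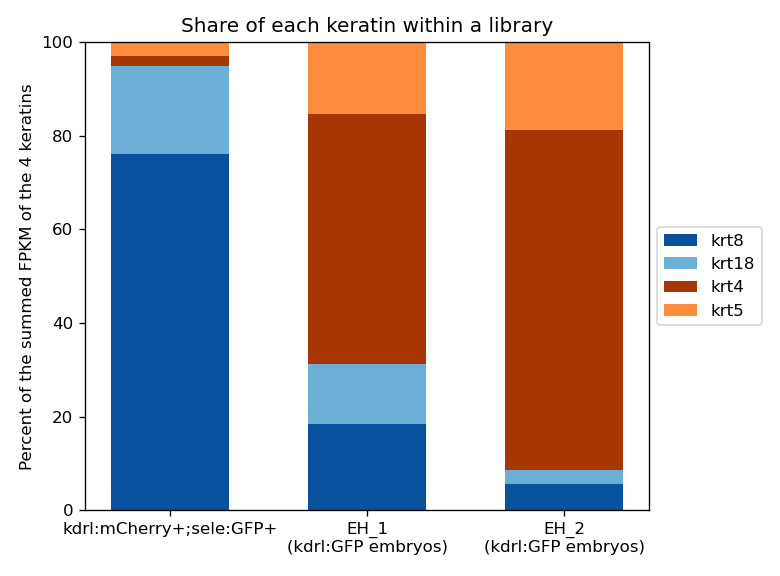
Each bar is 1 library and is divided by the percent of the summed FPKM of krt8, krt18, krt4 and krt5. krt8 and krt18 (blue) take 94.97% of this sum in the kdrl:mCherry+;sele:GFP+ library, 31.3% in EH_1 and 8.55% in EH_2.

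Some pairs of genes within a set kept steadier ratios than krt8 did to krt5, a gene of the other set. The ratio of krt8 to krt5 was 25.3 in double positive cells, 1.2 in EH_1 and 0.296 in EH_2. Not every pair within the second set was compared. icn was above krt4 in double positive cells and below it in EH_1 and EH_2. krt8 was 4.04 times krt18 in double positive cells, 1.42 times in EH_1 and 1.84 times in EH_2. The ratio of icn to krt5 was 1.45 in double positive cells, 1.01 in EH_1 and 1.20 in EH_2. The ratio of krt4 to epcam was 6.36 in double positive cells, 7.91 in EH_1 and 9.90 in EH_2. The ratio of krt4 to krt5 was less steady, at 0.672 in double positive cells against 3.48 in EH_1 and 3.89 in EH_2, so that krt5 was the higher type II keratin of this pair in double positive cells only.

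Gene position was looked up for a few pairs of genes only, and its relation to the sets was not tested. In the gene order of the RefSeq annotation of assembly GRCz12tu, krt8 has krt5 and the gene now named krt18a.1 as its next protein-coding neighbours, with 0 protein-coding genes between either and krt8. The row krt18 of the kdrl:GFP table carries the Ensembl identifier of krt18a.1. Its adjacent paralog krt18a.2 stood at 3.55 FPKM in EH_1 and 0.705 FPKM in EH_2. krt8 thus lies beside a gene of its own set and beside a gene of the other set. krt5 ranked lower in double positive cells than in both kdrl:GFP libraries, as krt4 did, although the ratio of krt4 to krt5 was not steady. An older symbol of krt4 is krt8. The tables hold separate rows for both symbols, and in the kdrl:GFP table separate identifiers. No source used here says how reads shared by similar keratin copies were divided, so single values of such copies are uncertain.

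The wider keratin family held genes of both patterns. By current symbols, synonyms or Ensembl identifiers, 19 keratin genes were found in all 3 libraries, 15 of them beside krt8, krt18, krt4 and krt5. In double positive cells 4 of the 19 reached 100 FPKM. After krt8 and krt18 came krt18b, a paralog of krt18, at 142 FPKM and the keratin gene krt94 at 124 FPKM, both of them above krt4 and krt5. krt18b stood at 59.1 FPKM in EH_1 and 35.3 FPKM in EH_2. krt94 stood at 32.4 FPKM in EH_1 and 3.96 FPKM in EH_2. krt18b and krt94 were singled out after their values were seen.

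Several further keratins ranked lower in double positive cells than in both kdrl:GFP libraries, as krt4 did, and were higher in EH_2 than in EH_1. These ranks are among all symbols of each table, 14581 or 29359, and are not like for like between the tables. How many of all symbols rank lower in this way was not counted. The type I gene krt1-19e, known from basal epidermis and listed as krtt1c19e in the double positive table, stood at 34.5 FPKM there, against 738 FPKM in EH_1 and 1990.3 FPKM in EH_2. The type I gene cyt1 stood at 17.9 FPKM in double positive cells, against 545 FPKM in EH_1 and 1414 FPKM in EH_2. Its neighbour cyt1l stood at 8.90 FPKM in double positive cells, against 433 FPKM in EH_1 and 1201 FPKM in EH_2. These are genes of epidermis, and each was within the highest 1% of symbols in both kdrl:GFP libraries. The keratin gene krt91 stood at 10.6 FPKM in double positive cells, against 235 FPKM in EH_1 and 613 FPKM in EH_2. The type I gene krt17 stood at 0.854 FPKM in double positive cells, against 54.6 FPKM in EH_1 and 109 FPKM in EH_2. krt92 also ranked lower in double positive cells, at 0.248 FPKM, but had its higher value in EH_1, with 26.9 FPKM against 20.0 FPKM in EH_2. Of the summed FPKM of the 19 genes, krt8 and krt18 made up 80.7% in double positive cells, 17.3% in EH_1 and 3.75% in EH_2.

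**Figure D3:**
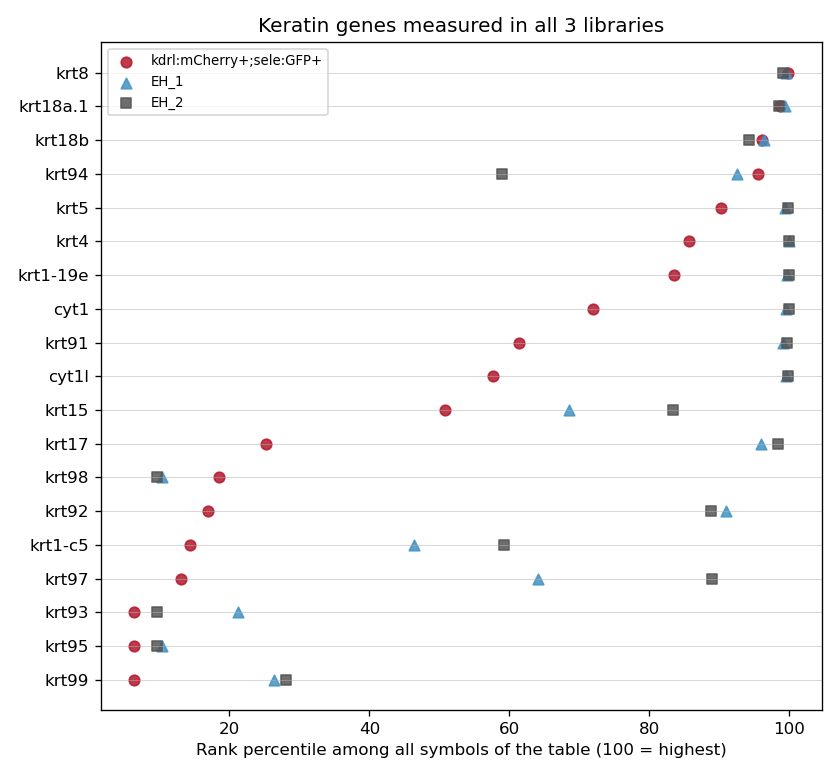
Rank percentile (100 = highest) of 19 keratin genes among all symbols of each library's table, ordered by their FPKM in the kdrl:mCherry+;sele:GFP+ library, with 1 mark per library. The krt18 row appears under its current symbol krt18a.1. krt8, krt18a.1 and krt18b lie near the right edge in every library, whereas krt4, cyt1, cyt1l and krt91 do so only in EH_1 and EH_2.

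The 2 libraries of kdrl:GFP embryos could be set side by side within their shared table. Folds are ratios of FPKM + 1 over the 19576 symbols with 1 FPKM or more in at least 1 of these libraries. Of these symbols 10.3% were at least 2-fold higher in EH_1 and 12.6% at least 2-fold higher in EH_2. krt18 was 2.68-fold and krt8 2.07-fold higher in EH_1 than in EH_2. icn was 2.33-fold, krt4 2.18-fold, krt5 1.95-fold and epcam 1.74-fold higher in EH_2 than in EH_1. The genes past 2-fold were thus krt8 and krt18 towards EH_1 and icn and krt4 towards EH_2, with krt5 just short of it. This membership depended on the scaling. With each library rescaled to the same sum, krt8 was 1.88-fold higher in EH_1 and krt5 2.15-fold higher in EH_2, and with ribosomal, mitochondrial and small RNA genes left out of that sum they were 1.93-fold and 2.09-fold. The directions of all 6 genes held under both rescalings, which moved the median log2 ratio of all compared symbols to -0.11 and -0.08. Within the distribution of all compared symbols, krt18 exceeded 94.2% and krt8 90.4% in its log2 ratio of EH_1 over EH_2, whereas epcam exceeded 17.3%, krt5 13.2%, krt4 9.78% and icn 8.12%. The 6 genes lay on opposite sides of the median of all compared symbols, a log2 ratio of 0.01.

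Among the 15 of the 19 keratin genes with 1 FPKM or more in EH_1 or EH_2, 3 were at least 2-fold higher in EH_1. These were krt8, krt18 and krt94, the last of them 6.73-fold. Another 6 were at least 2-fold higher in EH_2, led by krt97 at 3.55-fold and cyt1l at 2.77-fold. These counts include krt8, krt18 and krt4 themselves and are on the deposited scale. Over all compared symbols the shares were 10.3% towards EH_1 and 12.6% towards EH_2.

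Other epithelial genes were examined in lists of the periderm and epidermis, of epithelial adhesion and junctions, and of desmosomes and keratin partners. In double positive cells 37 of 57 genes of the periderm and epidermis list were found, with a median of 1.54 FPKM against 5.98 FPKM over all symbols. In EH_1 and EH_2 47 were found, with medians of 15.1 FPKM in EH_1 and 21.6 FPKM in EH_2, against 2.11 and 2.42 FPKM over all symbols of those libraries. The median rank percentile of the list was 31.3 in double positive cells, 83.6 in EH_1 and 89.8 in EH_2. Here and in the lists that follow, percentiles are among all symbols of each table, 14581 or 29359, not among the shared symbols. The genes found also differ, so list percentiles are not like for like between the double positive and the kdrl:GFP libraries. Between the kdrl:GFP libraries 22 of 44 of its compared genes were at least 2-fold higher in EH_2 and 1, ponzr6, at least 2-fold higher in EH_1. Over all compared symbols the shares were 12.6% and 10.3%. The median log2 ratio of EH_1 over EH_2 was -1.01, close to those of krt4 and krt5.

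Single genes of this list showed the contrast with krt8 and krt18. icn2, the genomic neighbour and paralog of icn, stood at 2.64 FPKM in double positive cells, against 146 FPKM in EH_1 and 727 FPKM in EH_2. The tight junction claudin gene cldni stood at 3.61 FPKM in double positive cells, against 179 FPKM in EH_1 and 327 FPKM in EH_2. cldne, a claudin gene of the periderm, stood at 0.698 FPKM in double positive cells, against 29.9 FPKM in EH_1 and 113 FPKM in EH_2. Other members ranked high in double positive cells. rnd3a, the highest of the list there, stood at 218 FPKM in double positive cells, against 53.3 FPKM in EH_1 and 50.9 FPKM in EH_2, the 97.6th, 95.9th and 96.2nd rank percentiles. The integrin gene itga6b stood at 57.0 FPKM in double positive cells, against 29.8 FPKM in EH_1 and 36.6 FPKM in EH_2. The sulfotransferase gene sult6b1 stood at 56.0 FPKM in double positive cells, against 25.5 FPKM in EH_1 and 18.5 FPKM in EH_2. The members next in level in double positive cells were the annexin partner gene s100a10b at 51.0 FPKM, against 130 FPKM in EH_1 and 268 FPKM in EH_2, and the Klf factor gene klf4 at 45.9 FPKM.

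The profilin gene pfn1 led this list in the kdrl:GFP libraries, at 2591 FPKM in EH_1 and 2328 FPKM in EH_2, with a fold of 1.11 between them. The symbol pfn1 was not found among those of the double positive cells.

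Genes of epithelial adhesion and junctions ranked low in double positive cells as a list, with exceptions. The median rank percentile was 20.6 in double positive cells, 61.5 in EH_1 and 77.2 in EH_2. In double positive cells 23 of 33 genes were found, with a median of 0.461 FPKM, and 4 of them were listed at 0. The medians were 4.28 FPKM in EH_1 and 9.71 FPKM in EH_2, over 27 genes. The E-cadherin gene cdh1 stood at 2.11 FPKM in double positive cells, against 48.5 FPKM in EH_1 and 93.5 FPKM in EH_2. cldn7b, a claudin gene of many epithelia, stood at 5.88 FPKM in double positive cells, against 66.2 FPKM in EH_1 and 137 FPKM in EH_2. Of 27 compared genes 13 were at least 2-fold higher in EH_2 and 2, rab25b and cgnl1, at least 2-fold higher in EH_1. The shares over all compared symbols were 12.6% and 10.3%. rab25b, a gene of a vesicle-sorting Rab protein, stood at 96.9 FPKM in double positive cells, against 3.90 FPKM in EH_1 and 0.584 FPKM in EH_2, the 94.3rd, 59.8th and 32.6th rank percentiles. The tight junction scaffold gene tjp1a was also higher in EH_1, with 45.1 FPKM against 29.3 FPKM in EH_2. The polarity gene llgl2 stood at 62.7 FPKM in double positive cells, against 32.6 FPKM in EH_1 and 22.9 FPKM in EH_2.

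The list of desmosomes and keratin partners also holds genes of nuclear lamins and of other intermediate filaments, such as vim and desma. Its medians and counts therefore do not describe desmosomes alone. The median rank percentile was 59.0 over 14 genes in double positive cells, against 80.7 in EH_1 and 76.9 in EH_2 over 21 genes. The medians in FPKM were 10.1 in double positive cells, 12.7 in EH_1 and 9.57 in EH_2. The lamin genes lmnb2, at 119 FPKM, and lmnb1, at 60.2 FPKM, were among the 5 highest of the list in double positive cells. The plakoglobin gene jupa, which serves desmosomes and other cadherin junctions, stood at 131 FPKM in double positive cells, against 50.6 FPKM in EH_1 and 69.2 FPKM in EH_2. perp, a gene of a desmosomal membrane protein, stood at 95.04 FPKM in double positive cells, against 81.5 FPKM in EH_1 and 168 FPKM in EH_2. The desmoglein gene dsg2, by contrast, stood at 1.30 FPKM in double positive cells, against 17.2 FPKM in EH_1 and 41.7 FPKM in EH_2. Of 20 compared genes 5 were at least 2-fold higher in EH_2 and 0 in EH_1, against 12.6% and 10.3% of all compared symbols.

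**Figure D4:**
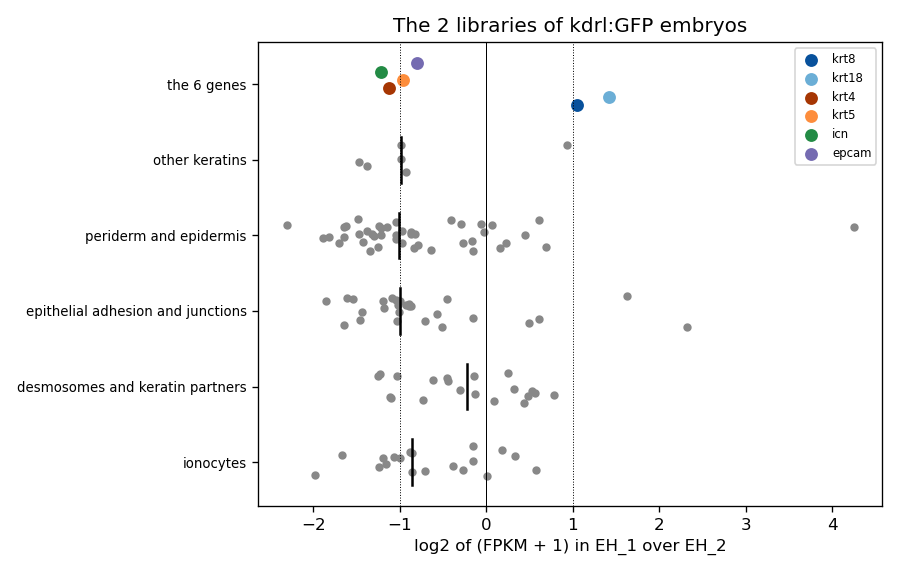
log2 of the ratio of FPKM + 1 in EH_1 over EH_2, on the deposited scale, with 1 point per gene, dotted lines at 2-fold and a black bar at the median of each list. krt8 and krt18 lie right of 1, while krt4 and icn and the medians of the epidermis list (-1.01) lie left of -1.

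A set of 12 markers of epidermis and periderm, which includes krt4, krt5, icn and epcam, was summed in each library. In double positive cells 9 were found, 0 of them at 0, with a sum of 202 FPKM. Without those 4 genes, the 5 remaining markers ran from 0.698 to 3.61 FPKM and summed to 11.8 FPKM. In EH_1 7 remaining markers summed to 442 FPKM and in EH_2 to 1332 FPKM. The largest parts were cldni and icn2, at 179 and 146 FPKM in EH_1 and 327 and 727 FPKM in EH_2. The 7 include markers that were not found in double positive cells, so these sums are not like for like with the 11.8 FPKM there. Within the kdrl:GFP table krt8 was at 486 FPKM and krt18 at 343 FPKM in EH_1, the library with the smaller marker sum, against 235 and 127 FPKM in EH_2. Of the 12 markers, epcam and cdh1 were also listed as markers of simple and early epithelium, with krt8, krt18 and cldn7b. In double positive cells krt8 was at 1494 FPKM and krt18 at 370 FPKM. The others of that list were low there, with epcam at 6.24, cldn7b at 5.88 and cdh1 at 2.11 FPKM. The part that epidermal cells or their RNA had in the levels of the 6 genes was not tested.

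The genes most like krt4 and krt8 in rank percentile were sought among 6326 shared symbols with 10 FPKM or more in at least 1 library. The nearest to krt4 was the cyclophilin gene ppiaa, at 41.0 FPKM in double positive cells, 3524 FPKM in EH_1 and 2538 FPKM in EH_2, with a summed difference of 0.504 percentile points over the 3 libraries. It was followed by the chromatin gene mta2, zgc:154164, the fatty acid-binding protein gene fabp3 and anp32b, at 3.23 to 5.39 points. Each of these genes, ppiaa included, ranked lower in double positive cells than in both kdrl:GFP libraries, as krt4 did. The search chose them by nearness to krt4 in these same ranks, so this follows from the choice. They are examples of such ranks outside the listed keratin and epidermis genes. How many of all shared symbols have such ranks was not counted. fabp3 was higher in EH_2 than in EH_1, as krt4 was, whereas ppiaa, mta2, zgc:154164 and anp32b were higher in EH_1. Nearness to krt4 by this measure therefore does not give the direction between EH_1 and EH_2. Among the nearest to krt8 were zgc:153867, the histone variant gene h2afvb, gnb2l1 and the ribosomal protein gene rpl35a, at 0.712 to 0.816 points. Any transcript near the top of every library comes close to krt8 by this measure.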

How the data were processed

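RNA came from sorted zebrafish cells, 1 library per population. Per the labels' protocols, ribosomal RNA was removed and low-input libraries were made from 50 ng of total RNA. The submitters' processing notes name the Zv9 (danRer7) build, Cufflinks 2.2.1, TopHat2 2.0.11 and cutadapt. The deposited values are FPKM. The sheet of the double positive cells names this unit, and the sheet of the kdrl:GFP embryos names none. There FPKM was taken from its name, which is that of an output of the Cufflinks programs. No source used here gives depth, annotation or multiple-mapping rules. No per-sample column was left out (0).

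FPKM of rows with the same symbol were summed. Symbols were ranked in each library with ties at their mean rank. Of 33734 Ensembl identifiers, 21935 matched the gene name table. Of 14581 symbols, 11801 are current in RefSeq GRCz12tu and 2372 match 1 gene as a synonym. No coordinates are printed, because the builds differ. Ratios between sets used log2(FPKM + 1). No test was planned or run. The members and gene lists were chosen with earlier results of these data known. The rule for named genes took the 6 members, the 5 highest genes per list and library, the 5 nearest in rank to krt4 and to krt8, and kdrl, sele and cdh5. Of the genes this rule takes, a selection is given, and 1 is not reported here. Outside the rule, ponzr6, foxi3a, foxi3b and the keratins matched by synonym or identifier were named after their values were seen. The share among 4 keratins and the 2-fold mark were chosen after the values were seen. Ranks, ratios and folds were tested on simulated data in Python 3.11.15 with pandas 2.3.3.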

Additional observations from a re-analysis of the deposited data

How the results depend on the processing

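The log2 ratio of krt8 and krt18 over the other 4 genes was positive in double positive cells and negative in EH_2 under every alternative run. None of these alternatives could turn the sign there. Both genes lay above each of the others in double positive cells and below each of them in EH_2. The alternatives therefore show only how far the size of the ratio moved. In double positive cells it was 4.21 by medians, 2.10 for the lower of the first set over the highest of the second, 4.47 with a pseudocount of 0.1 and 4.47 with none, and 3.40 to 5.41 leaving out each gene in turn. In EH_2 it was -2.26 by medians, -4.58 by the extremes and -2.93 to -1.83 leaving out each gene. In EH_1, where the main value was -0.15, it was 0.027 by medians, -2.04 by the extremes and -0.59 to 0.40 leaving out each gene, and turned positive without krt18 (0.10) and without krt4 (0.40). Smaller pseudocounts did not change the EH_1 and EH_2 values at 2 decimals. The share of krt8 and krt18 with 4 type I keratins added, an alternative chosen after seeing the data, was 93.4% in double positive cells, 22.5% in EH_1 and 5.19% in EH_2. The median of the other keratins fell with synonyms added, to 0.551 FPKM in double positive cells, 8.93 FPKM in EH_1 and 13.6 FPKM in EH_2, against 6.25, 31.8 and 61.4 FPKM without them. These stay within the 95% order-statistic intervals over members. For so few genes those intervals run from the lowest to the highest gene of the list, so staying within them is no check of this median. The other list medians stayed within theirs with synonyms added, as did all list medians with members at 0 left out. Rank percentiles of the 6 genes moved by -18.0 to -0.02 points when only symbols of 1 FPKM or more were ranked, by -2.69 to 0.01 points among symbols in both tables and by 0 to 0.03 points with the highest row per symbol. Rescaling a library changes neither ranks nor plain ratios of FPKM within it. Ratios of FPKM + 1 do depend on the scale. Rescaling moved the folds of EH_1 over EH_2, an alternative chosen after seeing the data. It took krt8 below 2-fold and krt5 above it, with every direction kept. The symbols at least 2-fold higher in EH_2 were then 16.6% or 18.6% of those compared, and those higher in EH_1 9.74% or 11.2%. The lack of replicates and of known depth limits every value.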

Other observations

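Ionocytes are the ion-transporting cells that lie in fish skin among the keratinocytes. Of 24 listed genes, 22 were found in double positive cells, with a median of 0.702 FPKM and 3 genes listed at 0. All 24 were found in the kdrl:GFP table, with medians of 1.78 FPKM in EH_1 and 3.91 FPKM in EH_2. Over all symbols the medians were 5.98 FPKM in double positive cells, 2.11 FPKM in EH_1 and 2.42 FPKM in EH_2. The list median thus lay below that of the library in double positive cells and EH_1, and above it in EH_2. Of 19 compared genes 6 were at least 2-fold higher in EH_2 and 0 in EH_1, against 12.6% and 10.3% of all compared symbols. The ammonium transporter gene rhbg stood at 2.98 FPKM in double positive cells, against 42.1 FPKM in EH_1 and 76.9 FPKM in EH_2. The ionocyte factor genes foxi3a and foxi3b stood at 0.696 and 0.865 FPKM in double positive cells, against 0.571 and 1.81 FPKM in EH_1 and 2.14 and 2.67 FPKM in EH_2. The sodium pump gene atp1a1a.1, which many cells use, stood at 169 FPKM in double positive cells, 131 FPKM in EH_1 and 115 FPKM in EH_2. The listed genes atp6v1ba, atp6v1aa and ca2 also lay above the library median in double positive cells, at 53.2, 31.2 and 24.8 FPKM. atp6v1ba was higher in EH_1, with 38.5 FPKM against 25.5 FPKM in EH_2. ca2 was higher in EH_2, with 56.2 FPKM against 26.4 FPKM in EH_1.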
